A study of Mus musculus with 8 samples.

Results

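Notch1, Notch2, Notch4, Dll4, Jag1, Jag2, Hey1, Hey2, Hes1 and Nrarp, a set of Notch receptors, their ligands and genes that Notch signalling turns on, were followed through RNA sequencing of endothelial cells sorted from mouse embryos with and without tamoxifen. The 10 genes were taken from a list of symbols drawn up with earlier results of these data known, and all 10 have a row in the table of 23337 genes. Tamoxifen was given by gavage to pregnant mice at E12.5, counted in embryonic days, and the embryos were taken at E15.5, when endothelial cells were isolated from the whole embryo by fluorescence-activated sorting. The controls had no tamoxifen. Both groups carry the transgenes Cdh5-CreERT2(PAC), a tamoxifen-dependent Cre recombinase driven by the endothelial cadherin gene Cdh5, and Rosa26fsTRAP, an allele of the Rosa26 locus that Cre switches on, although the samples' genotype is entered as wild type. No group separates tamoxifen itself from the Cre activity it switches on. The labels list 8 samples, 4 per group, and do not say whether they came from separate litters, and the p-values cover only the spread among these samples, part or all of which may be technical.

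The table's header is 1 field short of its data lines, so the names can be placed over the first or the last 8 value columns. The 6 columns that carry the same group under both placements were compared, 3 without tamoxifen (no_tamoxifen_1 to no_tamoxifen_3) and 3 with it (tamoxifen_1 to tamoxifen_3), numbered in table order. Columns 6 and 10, whose group or name depends on the placement, are given apart. Values are the authors' normalised reads per gene. The 6 libraries held 12212472 to 19908404 reads in genes, column 6 held 8695745 and column 10 held 22593195. A ribosomal RNA row, Rn45s, took 29.4% to 38.7% of reads in the 6 libraries, 45.7% in column 6 and 32.6% in column 10. Without that row the 6 libraries held 8436939 to 13283464 reads, column 6 held 4722781 and column 10 held 15233550.

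Notch proteins are receptors on the cell surface that are cut when a Delta-like or Jagged ligand on a neighbouring cell binds them. The freed intracellular part enters the nucleus and, with the DNA-binding protein RBPJ and a Mastermind-like coactivator, turns on genes of the HES and HEY families of repressors. In blood vessels the pathway is known for restraining tip cells during sprouting, for arterial identity and for the recruitment of mural cells.

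Of the 10 genes, 8 had a promoter in the RefSeq table used here (GRCm38.p6, from 250 bases before to 50 after the start of the gene), and Hes1 and Hey1 had none. RBPJ recognises the core letters TGGGAA, which were searched on both strands, where the reverse strand reads TTCCCA. Hey2 was the one gene of the 8 with a match and had 2 of them. The first begins 207 bases before the start. The second begins 3 bases before the start and runs across it. Each lies inside the longer word GTGGGAA or its reverse TTCCCAC, which contains the core. Of 32544 promoters of this length 25.4% hold the core and 3.80% hold at least 2 copies. The longer word occurs in 6.39% of them, and 0.255% hold at least 2 copies. The Hey2 promoter is shown as the one with matches, in capitals, and those of Nrarp and Dll4, a Notch target and a Notch ligand without a match, are shown for comparison. Hey2 spans chr10:30842734-30843033 on the minus strand, Nrarp chr2:25180508-25180807 on the plus strand and Dll4 chr2:119325534-119325833 on the plus strand, each read 5′ to 3′ along its gene.
Hey2: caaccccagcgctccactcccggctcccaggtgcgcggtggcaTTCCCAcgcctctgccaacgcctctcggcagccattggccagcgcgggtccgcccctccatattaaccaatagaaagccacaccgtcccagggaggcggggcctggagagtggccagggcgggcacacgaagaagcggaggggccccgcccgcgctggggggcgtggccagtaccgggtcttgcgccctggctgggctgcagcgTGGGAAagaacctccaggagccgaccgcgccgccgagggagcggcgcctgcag
Nrarp: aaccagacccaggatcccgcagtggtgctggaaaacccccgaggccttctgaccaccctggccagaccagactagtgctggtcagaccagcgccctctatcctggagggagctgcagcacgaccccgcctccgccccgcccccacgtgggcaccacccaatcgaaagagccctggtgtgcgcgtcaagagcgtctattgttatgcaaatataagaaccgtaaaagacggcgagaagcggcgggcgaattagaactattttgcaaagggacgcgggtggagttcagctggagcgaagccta
Dll4: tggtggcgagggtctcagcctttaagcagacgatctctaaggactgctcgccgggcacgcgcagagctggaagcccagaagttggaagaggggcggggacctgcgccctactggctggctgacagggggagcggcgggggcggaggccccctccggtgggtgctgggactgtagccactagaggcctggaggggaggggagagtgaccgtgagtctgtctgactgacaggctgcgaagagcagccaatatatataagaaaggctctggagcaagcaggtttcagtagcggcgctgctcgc
A match to these letters is a description of the sequence and not a measured binding site.

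The libraries differed in the marker genes of the cell types a sort could hold. The mean log2(value + 1) of 12 endothelial markers was 10.48, 10.28 and 9.82 in the controls, against 10.47, 10.51 and 9.22 in tamoxifen_1, tamoxifen_2 and tamoxifen_3. The 10 mesenchymal markers were at 6.87, 6.26 and 5.53 in the controls, against 10.19, 10.59 and 6.69 in the tamoxifen libraries in the same order. So tamoxifen_3 was the lowest of the 6 in endothelial markers, and tamoxifen_1 and tamoxifen_2 stood far above the others in mesenchymal markers. Summed, the mesenchymal markers reached 2036 to 4647 normalised reads without tamoxifen, and 55823, 86509 and 4404 with it. The 8 cartilage markers summed to 874 to 1165 without tamoxifen, and to 18615, 16122 and 1103 with it. The 8 mural cell markers summed to 541 to 892 without tamoxifen, and to 1567, 1635 and 631 with it. In each of these lists tamoxifen_1 and tamoxifen_2 were above every library without tamoxifen. The 11 macrophage markers found in the table were abundant in all 6 libraries, with sums of 46453 to 53852 without tamoxifen and of 37390, 35460 and 56361 with it. Their mean log2(value + 1) was 11.04 to 11.74 over the 6 libraries, above the endothelial mean in each. None of the markers in these 5 lists was at 0 in all 6 libraries, and none passed the limma threshold. Arterial, erythroid, megakaryocyte, epithelial, neural and venous lists were also scored. Arterial means were 8.25 in tamoxifen_1 and 8.34 in tamoxifen_2, above the control range of 7.14 to 7.51, which held tamoxifen_3 at 7.18. Erythroid means were 5.94 and 6.30 in the same 2 libraries, above controls at 4.64 to 4.72, and 4.37 in tamoxifen_3. The remaining lists did not put both libraries above every control. The part of these marker lists in the members' values was not tested. In libraries of sorted but mixed cells, fewer cells of a type and less RNA per cell cannot be told apart.

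**Figure D1:**
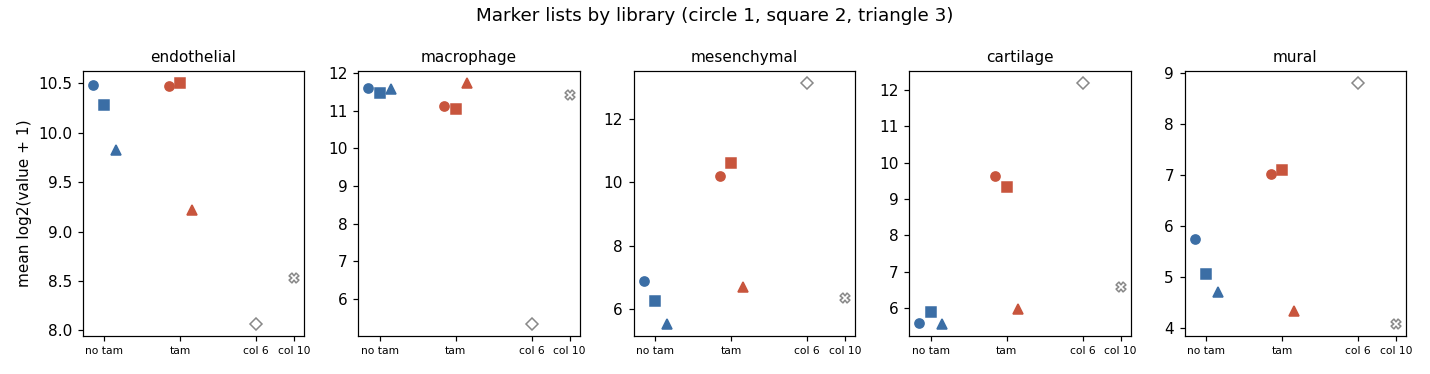
Mean log2(value + 1) of the marker lists, 1 panel per cell type, for the libraries without tamoxifen (blue), with tamoxifen (red) and columns 6 and 10 (grey). The axes do not start at 0. The triangle of tamoxifen_3 is the lowest of the 6 in endothelial markers (9.22), and the red circle and square are the highest of the 6 in mesenchymal, cartilage and mural markers.

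No member passed the threshold between the groups. The comparison asks whether transcript levels differ in the sorted cells after tamoxifen. Of the 10 genes 9 reached a mean of 10 normalised reads and were tested, with limma on log2(value + 1) and Benjamini-Hochberg adjustment over 13480 genes. The test called 6 genes of all those tested, 6 higher and 0 lower, which is 0.0445%, and 0 of the 9 members. edgeR called 5 genes and DESeq2 275, with 0 members each. At an unadjusted p under 0.05 limma had 1215 genes (9.01%) and 0 members. The members' log2 differences ran from -0.20 for Hes1 to 0.69 for Jag1, 7 positive and 2 negative, with a median of 0.23 against -0.02 over all tested genes. The groups of 3 did not overlap for 13.9% of all tested genes and for 0 of the 9 members. An exact permutation test of 3 libraries against 3 cannot go below p = 0.1, and the members' exact two-sided permutation p-values were 0.3 to 1.

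Most members shared an order of libraries. In Notch1, Notch4, Dll4, Jag1, Jag2 and Hey1, tamoxifen_1 and tamoxifen_2 were above every library without tamoxifen and tamoxifen_3 was below all of them. This order held in 6 of the 9 tested members and in 6.23% of all tested genes. Of the 6 libraries, tamoxifen_1 and tamoxifen_2 were also the highest in mesenchymal markers and tamoxifen_3 the lowest in endothelial ones. The first part of the order, tamoxifen_1 and tamoxifen_2 above all 3 libraries without tamoxifen, held in the same 6 members and in 18.6% of all tested genes.

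The 3 receptors differed in abundance and in how they followed the libraries. Notch1, the main Notch receptor of the vascular endothelium, had 3918, 3136 and 3614 normalised reads without tamoxifen and 5086, 4701 and 3018 with it, 3556 ± 394 against 4268 ± 1100 (SD, n = 3 each). The 2 higher tamoxifen libraries exceeded all controls and tamoxifen_3 was below all of them. Its log2 difference was 0.23 ± 0.19 (SE; 95% interval -0.21 to 0.68; limma adjusted p = 0.731). Notch4, a receptor found mainly in endothelium, had 713, 542 and 432 normalised reads without tamoxifen and 923, 1050 and 345 with it, 563 ± 142 against 773 ± 376 (SD, n = 3 each). The same 2 libraries were high and the same one low, a 3-fold range within the tamoxifen group. Its log2 difference was 0.33 ± 0.39 (SE; 95% interval -0.56 to 1.22; limma adjusted p = 0.820).

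Notch2, a receptor that is also active in myeloid and mural cells, had another order. It had 4249, 4013 and 4758 normalised reads without tamoxifen and 4004, 4185 and 5185 with it, 4340 ± 380 against 4458 ± 636 (SD, n = 3 each). Here tamoxifen_3 was the highest library and tamoxifen_1 the lowest, and the groups overlapped. The log2 difference was 0.03 ± 0.13 (SE; 95% interval -0.26 to 0.33; limma adjusted p = 0.959). Per 100 reads of Csf1r, the receptor gene of macrophages, Notch2 had 37.9, 41.8 and 40.3 reads without tamoxifen and 49.3, 56.1 and 42.4 with it. This ratio did not overlap between the groups, narrowly so in tamoxifen_3, while Notch2 itself did. Csf1r itself had 11218, 9605 and 11809 normalised reads without tamoxifen and 8124, 7464 and 12229 with it. The share of all genes not overlapping per Csf1r read was not computed.

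**Figure D2:**
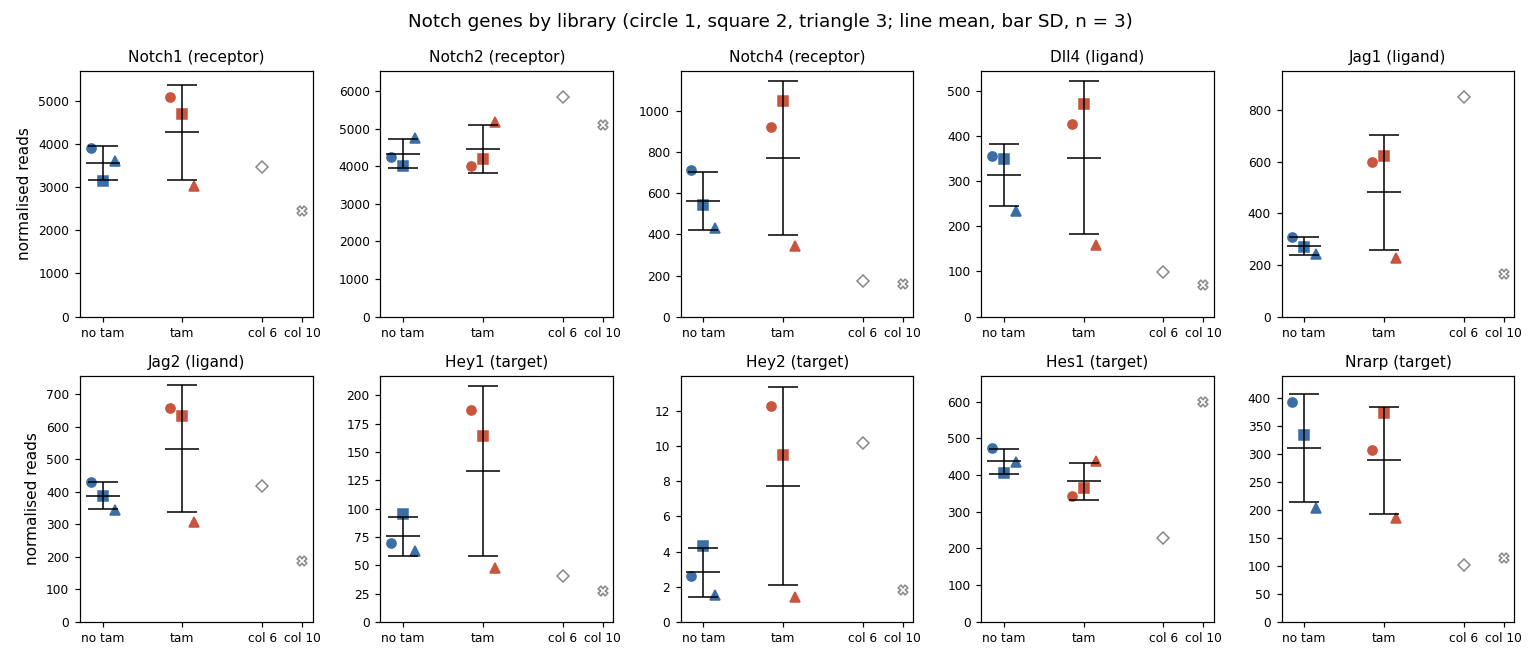
Normalised reads of the 10 genes in each library, 1 panel per gene, for the libraries without tamoxifen (blue), with tamoxifen (red) and columns 6 and 10 (grey). Long lines are group means and bars their SD (n = 3). In Notch1, Notch4, Dll4, Jag1, Jag2 and Hey1 the red circle and square lie above and the red triangle below all blue points.

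Among the ligands, Jag1 had the lowest adjusted p of the members. Jag1, a Jagged ligand made by endothelial, mural and mesenchymal cells, had 309, 270 and 240 normalised reads without tamoxifen and 600, 620 and 225 with it, 273 ± 34.3 against 482 ± 223 (SD, n = 3 each). Its levels in tamoxifen_1 and tamoxifen_2 were far above the narrow control range, and tamoxifen_3 lay just below that range. The log2 difference was 0.69 ± 0.36 (SE; 95% interval -0.13 to 1.5; limma adjusted p = 0.598). Jag2, the other Jagged ligand, had 429, 388 and 345 normalised reads without tamoxifen and 659, 633 and 307 with it, 388 ± 42.0 against 533 ± 196 (SD, n = 3 each). The pattern was that of Jag1 with a smaller gap, at a log2 difference of 0.38 ± 0.28 (SE; 95% interval -0.25 to 1.01; limma adjusted p = 0.684).

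Dll4, the Delta-like ligand of tip cells and arterial endothelium, had 357, 349 and 234 normalised reads without tamoxifen and 427, 471 and 158 with it, 313 ± 68.5 against 352 ± 170 (SD, n = 3 each). Libraries no_tamoxifen_3 and tamoxifen_3, the lowest of their groups in Dll4, were also the lowest of their groups in endothelial markers. The log2 difference was 0.04 ± 0.39 (SE; 95% interval -0.85 to 0.93; limma adjusted p = 0.982).

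The targets did not move as a group. Hey1, a repressor induced by Notch in endothelium, had 69.4, 95.1 and 62.4 normalised reads without tamoxifen and 187, 164 and 47.7 with it, 75.6 ± 17.2 against 133 ± 74.9 (SD, n = 3 each). It followed Jag1 and Notch4, high in tamoxifen_1 and tamoxifen_2 and lowest in tamoxifen_3. The log2 difference was 0.61 ± 0.48 (SE; 95% interval -0.49 to 1.70; limma adjusted p = 0.713). Hey2, a related repressor of arterial endothelium, was near the limit of detection with 3, 4 and 2 recovered reads without tamoxifen and 12, 10 and 2 with it. With a mean under 10 normalised reads it was not tested. In normalised reads its libraries had the order of Hey1, with tamoxifen_1 highest and tamoxifen_3 lowest, although tamoxifen_3 and no_tamoxifen_3 had 2 reads each.

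Hes1, a repressor that many cell types make in response to Notch and other signals, had 473, 405 and 437 normalised reads without tamoxifen and 344, 365 and 440 with it, 438 ± 33.9 against 383 ± 50.3 (SD, n = 3 each). Its 2 lowest libraries were tamoxifen_1 and tamoxifen_2, the reverse of Hey1, and tamoxifen_3 lay within the control range. The log2 difference was -0.20 ± 0.14 (SE; 95% interval -0.51 to 0.11; limma adjusted p = 0.669). Per 100 Csf1r reads Hes1 was at 4.22, 4.22 and 3.70 without tamoxifen and at 4.24, 4.89 and 3.60 with it.

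Nrarp, a Notch-induced protein that dampens the signal by binding the active Notch complex, had 392, 334 and 204 normalised reads without tamoxifen and 307, 372 and 185 with it, 310 ± 96.4 against 288 ± 95.1 (SD, n = 3 each). Library tamoxifen_3 was again the lowest, but tamoxifen_1 and tamoxifen_2 lay inside the control range. The log2 difference was -0.11 ± 0.31 (SE; 95% interval -0.81 to 0.59; limma adjusted p = 0.931).

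The calls depended on a single library. Without tamoxifen_3, limma called 1459 of 13514 genes (10.8%) and 5 of the 9 tested members, all 5 higher in tamoxifen. Log2 differences were positive in 7 of the 9. Jag1 was then at a log2 difference of 1.16 ± 0.15 (SE; limma adjusted p = 9.57e-05) and Hey1 at 1.23 ± 0.24 (limma adjusted p = 0.0028). Jag2 was at 0.74 ± 0.14 (limma adjusted p = 0.00285), Notch4 at 0.84 ± 0.17 (limma adjusted p = 0.00462) and Notch1 at 0.47 ± 0.12 (limma adjusted p = 0.0227). Leaving out any other single library gave 2 to 5 called genes and 0 called members. With tamoxifen_1 and tamoxifen_2 left out together, tamoxifen_3 alone was set against the 3 controls, on the assumption that it varies as they do, and 0 members passed. In that fit Dll4 was at -0.96 ± 0.26 (SE; limma adjusted p = 0.103), Notch4 at -0.67 ± 0.24 (limma adjusted p = 0.291), Jag1 at -0.27 ± 0.23 (limma adjusted p = 0.811) and Notch1 at -0.23 ± 0.17 (limma adjusted p = 0.778). This split was made after tamoxifen_3 had been seen below the controls and restates that order.

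**Figure D3:**
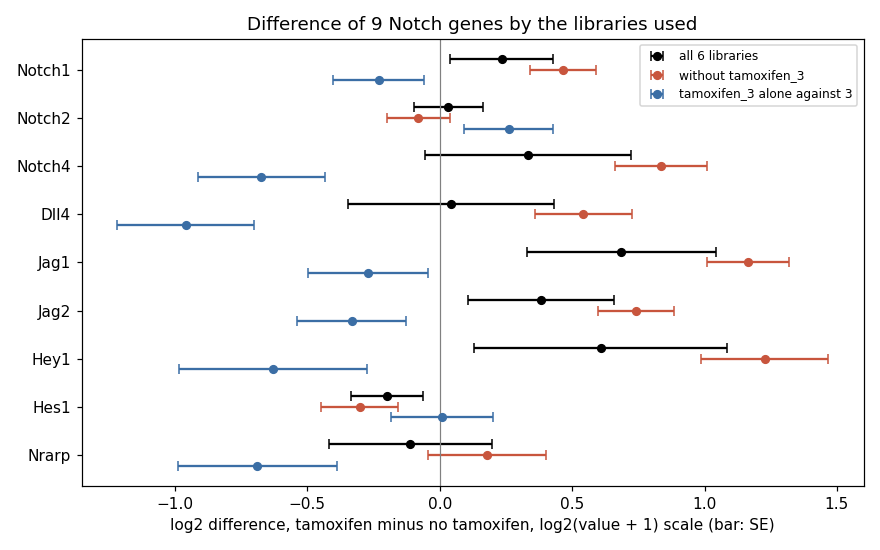
Log2 difference of the 9 tested genes, tamoxifen minus no tamoxifen on the log2(value + 1) scale, with bars for the SE, from all 6 libraries (black), without tamoxifen_3 (red) and from tamoxifen_3 alone against the 3 controls (blue). Red lies above 0 and blue below 0 for 7 genes, Notch1, Notch4, Dll4, Jag1, Jag2, Hey1 and Nrarp. Notch2 and Hes1 have red below 0 and blue above, the blue point of Hes1 at 0.0078.

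Set against endothelial transcripts of the same library, 4 members were higher in all 3 tamoxifen libraries, tamoxifen_3 included. Per 100 reads of Cdh5, the gene of the endothelial cadherin, Jag1 had 6.15, 6.31 and 8.16 reads without tamoxifen and 11.5, 13 and 11.4 with it. Notch4 had 14.2, 12.7 and 14.7 against 17.8, 22 and 17.4. Jag2 had 8.56, 9.06 and 11.7 against 12.668, 13.243 and 15.497, and Hey1 had 1.38, 2.22 and 2.12 against 3.61, 3.44 and 2.41. For these 4 of the 9 tested members the groups did not overlap, narrowly so for Hey1, and 6.04% of all tested genes were likewise higher without overlap per Cdh5 read. Dll4, by contrast, had 7.10, 8.15 and 7.95 reads per 100 Cdh5 reads without tamoxifen and 8.22, 9.86 and 7.98 with it. Nrarp had 7.81, 7.80 and 6.92 against 5.91, 7.79 and 9.36. The Dll4 and Nrarp groups overlapped, and the range of Dll4 over the 6 libraries was narrower in this ratio than in reads.

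The mean of the endothelial list, which includes Cdh5 and so is not an independent scale, gave the same 4 genes. On the log2(value + 1) scale, Jag1 lay -2.21, -2.20 and -1.91 from the endothelial mean without tamoxifen and -1.24, -1.23 and -1.40 with it. Notch4 lay at -1.0, -1.20 and -1.07 against -0.62, -0.47 and -0.78. After this subtraction 4 of the 9 tested members, Notch4, Jag1, Jag2 and Hey1, were higher without overlap, as were 6.75% of all tested genes. The scaling moved the median log2 difference of all tested genes from -0.02 to 0.11. limma on the scaled values called 198 genes (1.47%) and 0 members. With the endothelial mean as a covariate instead, limma called 914 genes (6.78%) and 3 members, Jag1 at 0.82 ± 0.14 (SE; limma adjusted p = 0.000865), Notch4 at 0.49 ± 0.12 (limma adjusted p = 0.0143) and Jag2 at 0.49 ± 0.12 (limma adjusted p = 0.0216).

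With the mesenchymal mean as the covariate, the sign of most members turned. limma then called 638 genes (4.73%) and 3 members, all lower in tamoxifen, with Dll4 at -1.16 ± 0.21 (SE; limma adjusted p = 0.00101), Notch4 at -0.90 ± 0.17 (limma adjusted p = 0.00226) and Nrarp at -0.93 ± 0.24 (limma adjusted p = 0.0239). Jag1 was at -0.41 in this fit and Jag2 at -0.44. Notch4 therefore passed as higher with an endothelial covariate and as lower with a mesenchymal one. In the tamoxifen group the mesenchymal mean is high in the same 2 libraries that are high in the members, and the 6 libraries cannot separate them.

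**Figure D4:**
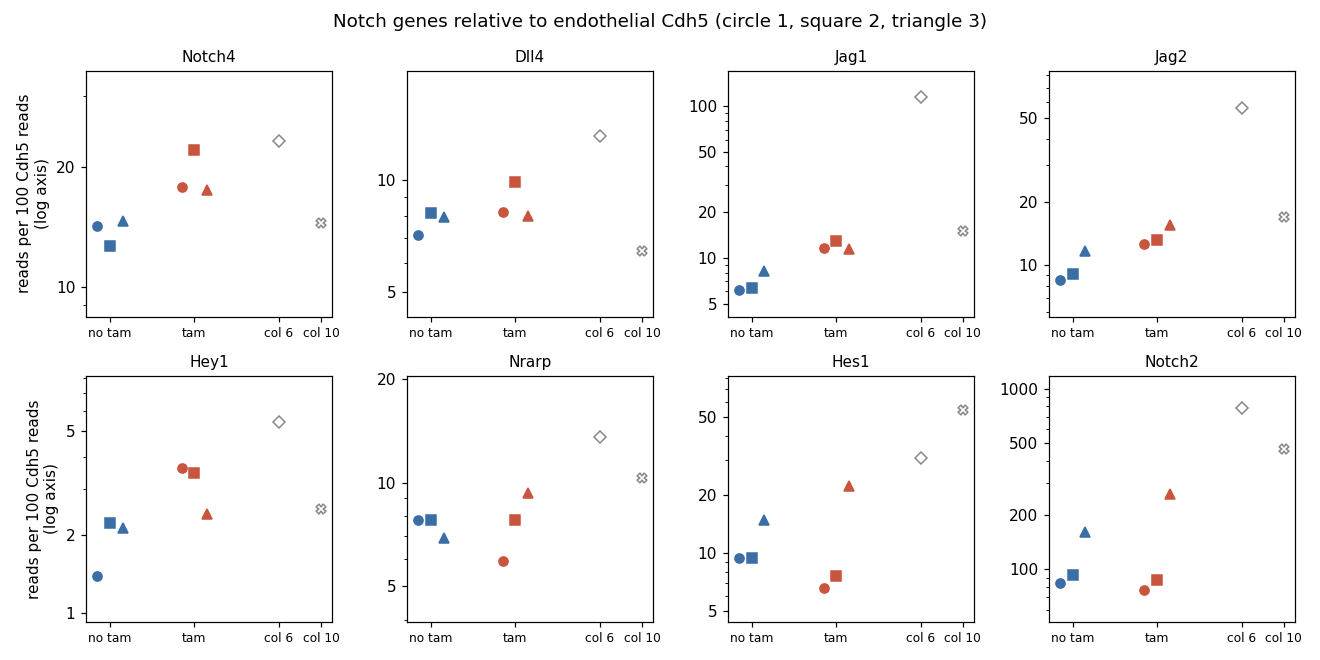
Reads of 8 members per 100 Cdh5 reads in each library, on log axes that differ between panels, for the libraries without tamoxifen (blue), with tamoxifen (red) and columns 6 and 10 (grey). For Notch4, Jag1, Jag2 and Hey1 all 3 red points lie above all 3 blue points. For Dll4, Nrarp, Hes1 and Notch2 they overlap.

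Some ratios between members did not overlap between the groups, but none could pass the threshold. The exact permutation test used for them cannot go below p = 0.1. There were 115, 129 and 97.5 Dll4 reads per 100 Jag1 reads in the controls and 71.2, 76.0 and 70.1 in the tamoxifen libraries, so this ratio was lower in all 3 tamoxifen libraries than in any control. Jag1 per 100 Jag2 reads stood at 71.9, 69.6 and 69.6 in the controls against 91.1, 98.0 and 73.5. Notch4 per 100 Dll4 reads stood at 200, 155 and 184 against 216, 223 and 219. The other 2 ratios between members overlapped, with Notch1 per 100 Notch2 reads at 92.2, 78.1 and 76.0 against 127, 112 and 58.2 and Hey1 per 100 Hes1 reads at 14.7, 23.5 and 14.3 against 54.5, 45.1 and 10.8. Of 17 ratios computed, including the 10 to Cdh5, 8 did not overlap between the groups. These had the smallest p an exact two-sided permutation test allows, 0.1, with a Benjamini-Hochberg adjusted value of 0.21 over the 17. The ratios share genes, and apart from those to Cdh5 no share over all genes was computed. The count of 8 can therefore not be set against a background.

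Columns 6 and 10 stood apart from the 6 libraries. Column 6 had macrophage markers at a mean log2(value + 1) of 5.34 and mesenchymal markers at 13.14, against ranges over the 6 libraries of 11.04 to 11.74 and 5.53 to 10.59. It had the most Jag1 of any column, 850 normalised reads, with 173 of Notch4 and 97.6 of Dll4. Its endothelial mean was 8.07, below all 6 libraries. Its Jag1 was 114 per 100 Cdh5 reads, with Cdh5 at 747 normalised reads. Column 10 had an endothelial mean of 8.53, also below all 6 libraries. It had 158 normalised reads of Notch4, 70.8 of Dll4, 165 of Jag1 and 27.6 of Hey1. Per 100 Cdh5 reads it had 14.4 of Notch4, inside the control range, and 15.1 of Jag1 and 17.0 of Jag2, above it. If the names stand over the last 8 columns, column 6 has no tamoxifen and column 10 has, and the Cdh5 ratios of all 4 genes then overlap between the groups. Under that placement limma called 4 genes and 0 members, and under the other, without the unused column, 0 genes.

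Per kilobase of exon, Notch2 was the most abundant of the members without tamoxifen, with 403 ± 35.3 normalised reads per kilobase (SD, n = 3). It was followed, without overlap, by Notch1 at 250 ± 27.7. Hes1 came next at 215 ± 16.6 and overlapped Notch1. After a gap came Nrarp at 120 ± 37.3, Dll4 at 81.3 ± 17.8, Notch4 at 69.8 ± 17.6, Jag2 at 55.6 ± 6.03 and Jag1 at 46.9 ± 5.89, each overlapping its neighbour in this order. Hey1 at 23.2 ± 5.27 was below all of these and Hey2 at 0.613 ± 0.307 was the lowest, both without overlap. Since macrophage markers were abundant, these levels are of the sorted mixture and not of endothelial cells alone.

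Across the table, the genes with values most like those of 3 members were ranked by Pearson r of log2(value + 1) over the 8 columns 3 to 10, among 10578 genes. The columns share differences in cell make-up and column 6 stands far from the rest, so r is given as a description. For Dll4 these were Rgs3 (r = 0.995), Plvap (r = 0.995) and Ushbp1 (r = 0.994), with r of 0.982, 0.991 and 0.991 over the 6 libraries alone. Plvap encodes a protein of endothelial fenestrae. For Notch1 they were Sorbs3 (r = 0.979), Pear1 (r = 0.979) and Ppp1r13b (r = 0.971). For Hey1 they were Sema3g (r = 0.974), a semaphorin gene of arterial endothelium, Rras (r = 0.960) and Dgke (r = 0.951). Sema3g had 93.7, 88.6 and 78.4 normalised reads without tamoxifen and 214, 219 and 75.0 with it, the same high and low libraries as Hey1.

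Of 53 other Notch pathway genes in the table, from ligand-modifying enzymes to nuclear cofactors, 46 were tested and 0 passed in limma. Their log2 differences were positive in 22 and negative in 24, with a median of -0.03 and a range of -0.60 to 2.67, and 5 of the 46 had an unadjusted p under 0.05, a share near that of all tested genes (9.01%). Rbpj, the DNA-binding partner of Notch, had 1628, 1571 and 1592 normalised reads without tamoxifen and 1424, 1139 and 1737 with it, a log2 difference of -0.18 ± 0.15 (SE; limma adjusted p = 0.739). In each role the gene of lowest p is named next.

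Of the 46, Dlk1, Notch3, Heyl and Numbl had log2 differences above 0.9, and none of the 4 passed. Dlk1, a Delta-like protein of fetal mesenchyme, had 222, 225 and 263 normalised reads without tamoxifen and 2581, 3614 and 364 with it, and 6158 in column 6. Its groups did not overlap, at a log2 difference of 2.67 ± 0.72 (SE; limma adjusted p = 0.462). Notch3, the receptor of mural cells, had 167, 140 and 132 normalised reads without tamoxifen and 674, 767 and 151 with it, and 2883 in column 6, at 1.55 ± 0.54 (limma adjusted p = 0.475). Both were highest in column 6, tamoxifen_1 and tamoxifen_2, as were the mesenchymal markers, whose part in these values was not tested. Numbl, a Numb-like Notch inhibitor, had 55.5, 51.9 and 63.2 normalised reads without tamoxifen and 141, 200 and 70.8 with it, at 1.14 ± 0.35 (limma adjusted p = 0.462). Heyl, the remaining HEY family repressor, was at 1.17 ± 0.66 (limma adjusted p = 0.610). Numbl, with 553 normalised reads in column 6, and Heyl, with 87.5, were likewise highest in column 6, tamoxifen_1 and tamoxifen_2. The part of the mesenchymal markers in their values was not tested either. DESeq2 called Dlk1 alone among these 53 genes (log2 difference 3.24, adjusted p = 0.0125). Without tamoxifen_3, limma called 7 of the 46, a share not far from the 10.8% of all genes in that fit, with Dlk1, Notch3, Numbl and Heyl higher and Neurl3, Adam17 and Psen2 lower.

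In the other roles the gene of lowest p did not pass either. Mib1, the ubiquitin ligase that activates ligands, was at -0.14 ± 0.10 (SE) and Lfng, a Fringe enzyme that adds sugar to Notch, at -0.20 ± 0.17. Adam10, the protease that makes the first cut after ligand binding, was at -0.26 ± 0.12 and Aph1c, a γ-secretase subunit, at -0.60 ± 0.17 (limma adjusted p = 0.462). Aph1c had 147.5, 146.9 and 129.4 normalised reads without tamoxifen and 84.0, 93.1 and 101.7 with it, without overlap. How reads were divided between Aph1c and its near copy Aph1b, at 0.30 ± 0.21, is uncertain. The coactivator Maml1 was at 0.27 ± 0.12 and the corepressor Spen at 0.14 ± 0.11. Dll3, Dlk2, Dner, Hes2, Hes3, Hes5 and Hes7 were below a mean of 10 normalised reads and were not tested.

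**Figure D5:**
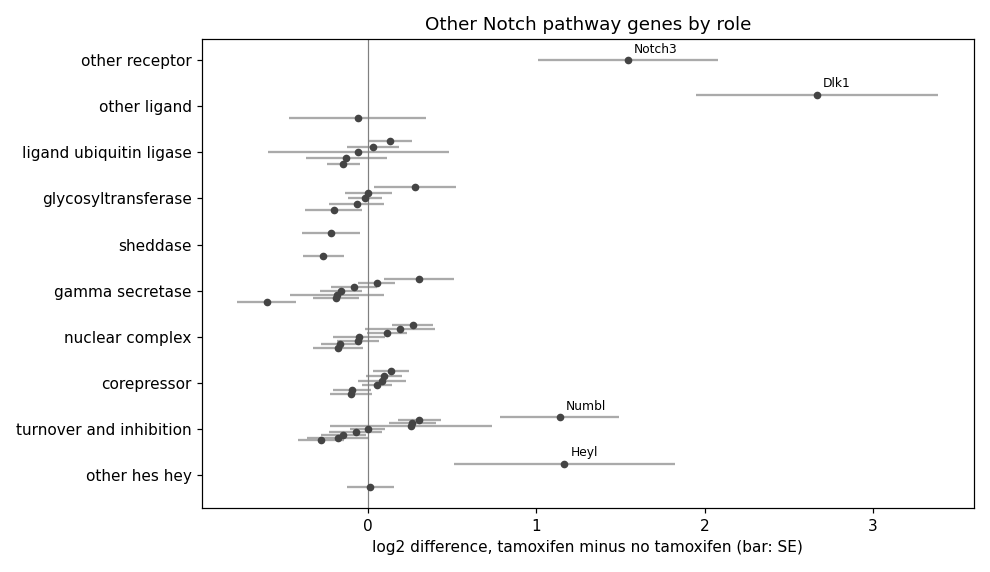
Log2 difference, tamoxifen minus no tamoxifen on the log2(value + 1) scale, of the 46 tested pathway genes by role, with bars for the SE. Named points lie beyond 0.9 in either direction, and the other genes of each role lie between -0.60 and 0.31.

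On GRCm38 (GENCODE M21), Notch1 lies on chromosome 2 at 26457903 to 26516663 (minus strand), Notch2 on chromosome 3 at 98013527 to 98150361 (plus) and Notch4 on chromosome 17 at 34564268 to 34588503 (plus). Dll4 lies on chromosome 2 at 119325784 to 119335962 (plus), Jag1 on chromosome 2 at 137081456 to 137116644 (minus) and Jag2 on chromosome 12 at 112907819 to 112929776 (minus). Hey1 lies on chromosome 3 at 8663359 to 8667256 (minus), Hey2 on chromosome 10 at 30832359 to 30842801 (minus), Hes1 on chromosome 16 at 30064384 to 30067796 (plus) and Nrarp on chromosome 2 at 25180758 to 25183339 (plus). Exons of Notch1, Dll4 and Nrarp overlap annotated genes on the opposite strand, and those of Notch2 one on the same strand. The sources used here do not say whether counting used strand, so the reads of these 4 genes may include some of their neighbours.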

How the data were processed

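The deposited values are the authors' normalised read counts, a signal unit, with 1 row per gene symbol. Per the submitters' processing notes, the tools were STAR, HTSeq 0.11.2 and DESeq2, and the builds listed are hg38 and mm10, with no roles. Ribosomal RNA was depleted before library preparation, per the labels' protocols, although Rn45s still took 29.4% to 38.7% of reads in the 6 libraries. Dividing each column by its smallest step gave whole reads for 100% of values (tolerance 0.001 reads). These reads gave depths and entered the alternatives with edgeR 4.0.16 (TMM) and DESeq2 1.42.0. 1 value column, the first, was not used.

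Differences were tested with limma 3.58.1 (R 4.3.3) on log2(value + 1) with group alone in the model and a trended prior variance, for genes whose mean over the 6 libraries reached 10 normalised reads, and adjusted by Benjamini-Hochberg at 0.05. Log2 differences on this scale understate those of low genes. The scripts were tested on simulated data. Marker means are over tested markers. Ratios of reads used no pseudocount. Intervals are 95%.

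Members, pathway genes and marker lists were chosen with earlier results of these data known. All members are described. Of the pathway genes, those that passed, the lowest p in each role and those below the filter are named, and the 3 genes most like Notch1, Dll4 and Hey1 have a mean of at least 50 over the 8 columns. Rbpj, Aph1b and the genes called under an alternative were named after their values were seen.

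Alternatives changed the pseudocount, filter, tool, scaling, header placement, covariate, replicate block and the libraries kept.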

Additional observations from a re-analysis of the deposited data

Results flagged for a closer look

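Among the 10 Notch genes, 5 values in the columns outside the main comparison lay above every library without tamoxifen. Only the high side was searched, and no share over all genes was computed, so the count of 5 has no background. Values below every library without tamoxifen also occurred, among them those of Notch4, Dll4, Hey1 and Nrarp in both columns. Notch2 had 5844 normalised reads in column 6 and 5091 in column 10, the latter below tamoxifen_3 (5185). Jag1 had 850.3 in column 6. Hey2 had 10.17 in column 6, from 5 recovered reads, which was below tamoxifen_1 (12.29). Hes1 had 598.4 in column 10. No formal test for outlying samples was run on groups of 3 libraries, although each library was left out in turn.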

How the results depend on the processing

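The limma counts of genes higher and lower, 6 and 0 in the main test, became 247 and 28 with DESeq2, 687 and 227 with the endothelial mean as covariate, and 135 and 503 with the mesenchymal mean as covariate. With the header names over the first 8 columns the count higher was 0. Leaving out 1 library gave 2 to 989 higher and 0 to 470 lower, both maxima without tamoxifen_3. Members called, 0 in the main test, were 0 to 5 without 1 library and 3 with either covariate. Other pathway genes called, also 0 of the 46 tested, were 1 with DESeq2, 0 to 7 without 1 library, 3 with the endothelial and 2 with the mesenchymal covariate. Of all tested genes, 2.04% were called with DESeq2 and 10.8% without tamoxifen_3. The endothelial covariate gave 6.78% and the mesenchymal one 4.73%, and the pathway counts were near these shares. Of 2 alternatives chosen after seeing the data, scaling to the endothelial mean gave 198 genes higher and 1 pathway gene, and leaving out tamoxifen_1 and tamoxifen_2 together gave 31 higher and 84 lower. The cause of these shifts was not tested.

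With the replicate number as a block, 20 genes were higher and 1 lower, and 0 members passed (limma adjusted p = 0.325 to 0.957). Deviations of same-numbered libraries correlated at 0.195, 0.036 and 0.345, the last being the highest of all pairs. Library no_tamoxifen_1 correlated best with tamoxifen_2 (0.329). The deviations also carry cell make-up, and the replicate numbers depend on the header placement, so these correlations cannot decide whether the libraries are paired.

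Some log2 differences turned in sign. With the mesenchymal covariate they were -0.28 for Notch1, -0.90 for Notch4, -1.16 for Dll4, -0.41 for Jag1, -0.44 for Jag2 and -0.75 for Hey1, and with the endothelial one -0.0029 for Notch2. Without tamoxifen_1 and tamoxifen_2 they were -0.23 for Notch1, -0.67 for Notch4, -0.96 for Dll4, -0.27 for Jag1, -0.33 for Jag2, -0.63 for Hey1 and 0.0078 for Hes1. With the names over the last 8 columns they were -0.025 for Notch2, -0.084 for Dll4, -0.074 for Jag1, -0.0038 for Jag2 and 0.19 for Hes1, and over the first 8 they were -0.17 for Notch4 and -0.38 for Dll4. Nrarp was at 0.021 scaled to the endothelial mean. Without 1 library, Notch2 ran from -0.081 to 0.11, Dll4 from -0.24 to 0.54 and Nrarp from -0.39 to 0.18. Other pseudocounts, filters, edgeR, DESeq2 and TMM scaling before limma changed no sign and no call of a member. With 3 libraries per group, differences of the size seen here were within the spread between libraries, and Hey2 was limited by its 2 to 12 reads.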
